A study of Homo sapiens with 4 samples.

Results

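The 10 genes of Wnt reception and planar polarity followed after APC silencing were the ligand gene WNT11, the co-receptor genes PTK7, LRP5 and LRP6, the Frizzled receptor genes FZD3, FZD5, FZD6 and FZD7, and the planar polarity genes VANGL1 and VANGL2. These 10 genes were chosen by name, with earlier results of these data known, and all of them were found among the 19729 genes listed. RNA-Seq was performed on HT-29 cells, a human colorectal cancer line that is microsatellite stable, BRAF-mutant and already APC-mutant. The cells carried a lentiviral, doxycycline (DOX)-inducible shRNA, either against APC (APC shRNA) or non-silencing (NonS), and were used as transduced pools at passage 3 to 5. Both conditions received 500 ng/ml DOX for 72 h, so the shRNA vector and DOX are shared by both, and 2 biological replicates (I and II) were sequenced for each, 4 libraries in all. APC was targeted with 1 hairpin, so effects of that hairpin on other transcripts cannot be told apart from those of APC silencing.

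Wnt proteins are secreted lipid-modified ligands that bind Frizzled receptors on the cell surface. Together with LRP5 or LRP6 a Frizzled passes the signal to β-catenin, which the APC protein otherwise helps to destroy, whereas Frizzled with co-receptors such as PTK7, ROR or RYK acts on the cytoskeleton and on planar cell polarity, the alignment of cells within a sheet. Vangl proteins are membrane components of the core polarity complex, and in the intestinal epithelium Wnt signaling maintains the stem cells at the crypt base.

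WNT11 and PTK7 rose strongly after APC silencing, by 10.5-fold and 8.59-fold, and the 2 were the members called by the test across all genes. VANGL2 was 3.33-fold higher with an adjusted p just above the threshold, while its paralog VANGL1 stayed between 7 and 9 in all 4 libraries. LRP5 was tested and not called, and LRP6 and the 4 Frizzled genes were too low to be tested. FZD5 and FZD6 had lower values and FZD7 had higher values in both APC shRNA libraries. A separation without overlap, in either direction, was seen in 45.0% of genes above 0 in at least 1 library.

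Each deposited value is a whole number per gene and library, treated here as a score of unstated scale: across genes it behaves like an expression value normalized to transcript length and sequencing depth, and not like a read count. Depth in reads is therefore unknown, and at scores under 10 rounding to whole numbers is a large part of the value. The 4 libraries summed to between 398338 and 413595. Genes with a mean score of at least 10 were tested on log2(score + 1) with limma, and a gene was called at a Benjamini-Hochberg adjusted p under 0.05 over the 5376 genes tested. Over these genes 8.04% were called, 4.33% higher and 3.7% lower. Of the 10, 4 were tested, and of these 2 were called higher and 0 lower, and 0 were lower at an unadjusted p under 0.05. The other 6, FZD5 and FZD6 among them, were not tested and could not be counted. An unadjusted p under 0.05, in either direction, was found for 1912 of the 5376 genes tested (limma). The median log2 difference over the 5376 genes tested was 0.03. APC itself was listed at 3 and 0 in the NonS libraries and at 0 in both APC shRNA libraries, which is too low to check its silencing in these scores. The paper reports silencing of APC mRNA and protein in these cells, the protein by immunoblot. The 9 colon epithelial markers summed to 3175 and 3822 in NonS and 4020 and 4078 in APC shRNA, a sum carried mostly by the keratin genes KRT8 and KRT18, and 6 of 6 markers of other cells, among them VIM, COL1A1 and PTPRC, were listed at 0 in every library. Some markers of intestinal identity were low and separated the conditions in both directions. CDX1 (2 and 2) and CDH17 (1 and 2) were above 0 in the controls alone. CDX2 (2 and 4) was above 0 in the silenced libraries alone. KRT20 was not low, with 180 and 266 in NonS and overlapping scores of 195 and 247 in APC shRNA. VIL1 had 29 and 31 in NonS and 39 and 35 in APC shRNA. CEACAM5 had 10 and 11 in NonS and 3 and 3 in APC shRNA. The part of these markers in the results was not tested.

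**Figure D1:**
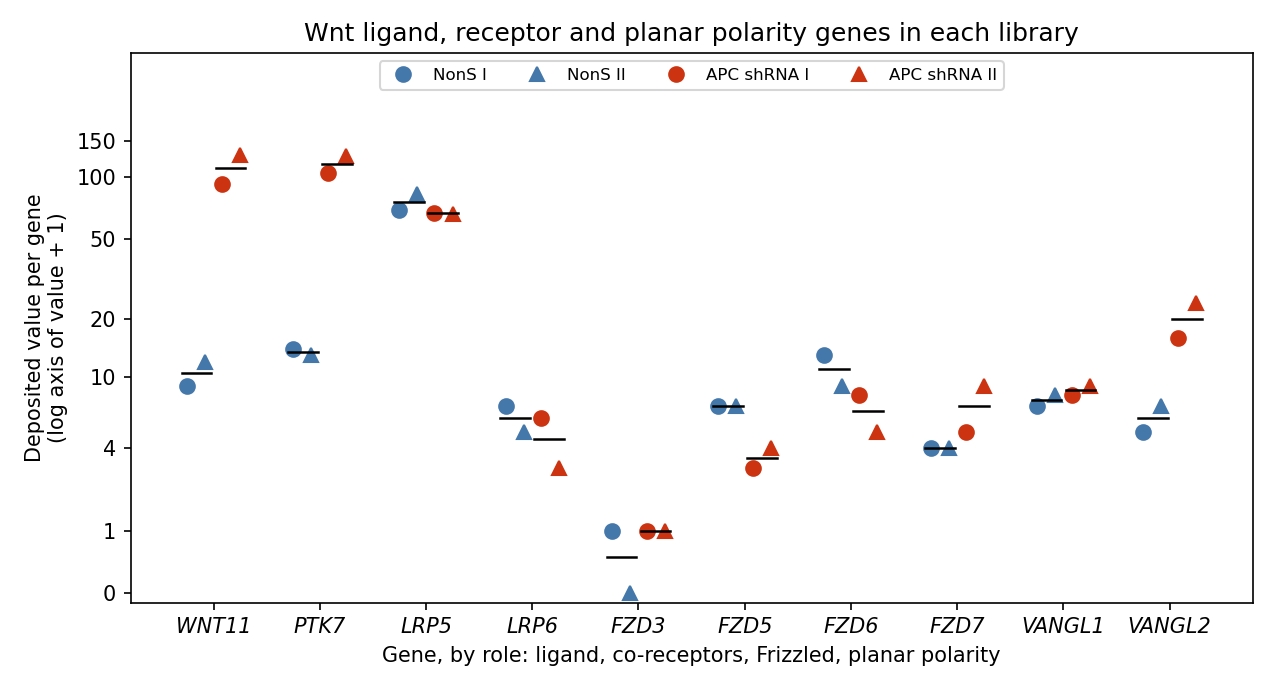
Deposited score of the 10 genes in each library, on a logarithmic axis of score + 1. Blue symbols are NonS and red symbols APC shRNA, circles are replicate I and triangles replicate II, and black lines are the means of 2 replicates. WNT11, PTK7 and VANGL2 stand well above their NonS scores in both APC shRNA libraries, and LRP5 is high in all 4.

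Of the 10 genes, 4 had a mean score of at least 10 and 6 did not. The silenced libraries were both higher than either control in 4 of the 10 (WNT11, PTK7, VANGL2, FZD7) and both lower in 3 (LRP5, FZD5, FZD6), and the conditions overlapped in 3 (LRP6, FZD3, VANGL1). Among the 12799 genes above 0 in at least 1 library, 25.9% were separated upwards and 19.1% downwards (45.0% in all), and among the genes tested 33.0% and 27.5% (60.5% in all). With 2 libraries per condition a complete separation is therefore common, and an exact two-sided permutation test cannot give a p below 0.333. In pooled cells, a change in every cell and a change in the number of cells that express a gene cannot be told apart.

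The order of the 10 genes also changed, read on the deposited score, which behaves as already divided by transcript length. In NonS, LRP5 led with a mean of 76 and stood above 94.5% of the genes above 0. PTK7, FZD6 and WNT11 followed at 13.5, 11 and 10.5, with replicate ranges that overlapped for FZD6 and its neighbours. VANGL1, FZD5, LRP6, VANGL2 and FZD7 lay between 7.5 and 4, and FZD3 was last at 0.5. In APC shRNA, PTK7 and WNT11 led with means of 116 and 110.5 and overlapping replicates. LRP5 came next at 66.5 and VANGL2 at 20, and the other 6 were at 8.5 or less. WNT11 moved from the 59.8th to the 96.4th percentile of genes above 0 and PTK7 from the 66.7th to the 96.6th, which placed both above LRP5.

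WNT11 encodes a secreted Wnt best known for signaling through the non-canonical, β-catenin-independent branch. The gene lies on chr11:76186325-76210736 (GRCh38, minus strand), with a longest annotated transcript of 1930 bases. In NonS its score was 9 (replicate I) and 12 (replicate II), and in APC shRNA it was 93 and 128. The lowest APC shRNA library was thus far above the highest NonS library. The mean score went from 10.5 ± 2.12 to 110.5 ± 24.7 (SD, n = 2), a fold of 10.5 that stays between 10 and 11.1 if every score is moved by 0.5 against or for the difference. On the log2(score + 1) scale the difference was 3.27 with an SE of 0.24 (limma, adjusted p = 0.0423), and 7 of the genes tested had a larger one. The call was lost when any 1 library was left out (limma, adjusted p = 0.150 to 0.208), as were all calls in the table, while the difference stayed between 3.04 and 3.50. WNT11 shares 204 exonic bases with an antisense gene, AP000785.1, and the strand setting of the counting is not stated in the sources used here, so reads of the 2 could not be separated.

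WNT11 also had the highest score among the Wnt ligand genes in each of the 4 libraries. Of the 18 other Wnt genes, 14 were listed at 0 in all 4 libraries and none reached a mean of 10. WNT10A, a ligand of the β-catenin branch, had the highest mean of them, with scores of 2 and 4 in NonS and 7 and 13 in APC shRNA. WNT7B had scores of 5 and 5 in NonS and 4 and 3 in APC shRNA. WNT6 had 3 and 5 in APC shRNA and was at 0 in the controls. The summed score of the 18 was 7 and 9 in NonS and 15 and 22 in APC shRNA, in each library below the score of WNT11 alone.

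PTK7 encodes a catalytically inactive receptor tyrosine kinase that acts with Frizzled and Vangl proteins in planar polarity and can take part in Wnt reception. The gene lies on chr6:43076268-43161719 (GRCh38, plus strand) and has 20 annotated transcripts. Its score was 14 and 13 in NonS and 105 and 127 in APC shRNA. As for WNT11, both silenced libraries stood far above both controls. Mean scores were 13.5 ± 0.707 and 116 ± 15.6 (SD, n = 2), a fold of 8.59 with rounding bounds of 8.25 and 8.96. The log2(score + 1) difference was 3.01 with an SE of 0.13 (limma, adjusted p = 0.0423), exceeded by 10 of the genes tested. Leaving out 1 library kept it between 2.87 and 3.14 but gave adjusted p-values of 0.148 to 0.208 (limma).

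LRP5 and LRP6 encode the paired single-pass co-receptors that Frizzled needs to reach β-catenin. LRP5, on chr11:68312609-68449275 (GRCh38, plus strand), had scores of 69 and 83 in NonS and 67 and 66 in APC shRNA. Both APC shRNA libraries were lower, but by only 2 score units against the nearer control. The means were 76 ± 9.90 and 66.5 ± 0.707 (SD, n = 2) and the log2(score + 1) difference was -0.18 with an SE of 0.12, which did not pass the test (limma, adjusted p = 0.338). Leaving out 1 library moved the difference between -0.32 (without NonS I) and -0.05 (without NonS II). LRP6, on chr12:12116025-12267012 (minus strand), had 7 and 5 in NonS and 6 and 3 in APC shRNA, so the conditions overlapped. LRP5 made up 90.8% and 94.3% of the summed LRP5 and LRP6 score in NonS and 91.8% and 95.7% in APC shRNA, a mean change of 1.16 percentage points that is smaller than the SD of either condition. RYK, a Wnt-binding pseudokinase and the only other co-receptor gene tested, had scores of 27 and 24 in NonS and 29 and 37 in APC shRNA (limma, adjusted p = 0.222). None of these 3 co-receptor genes separated upwards by more than a few score units, unlike PTK7.

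**Figure D2:**
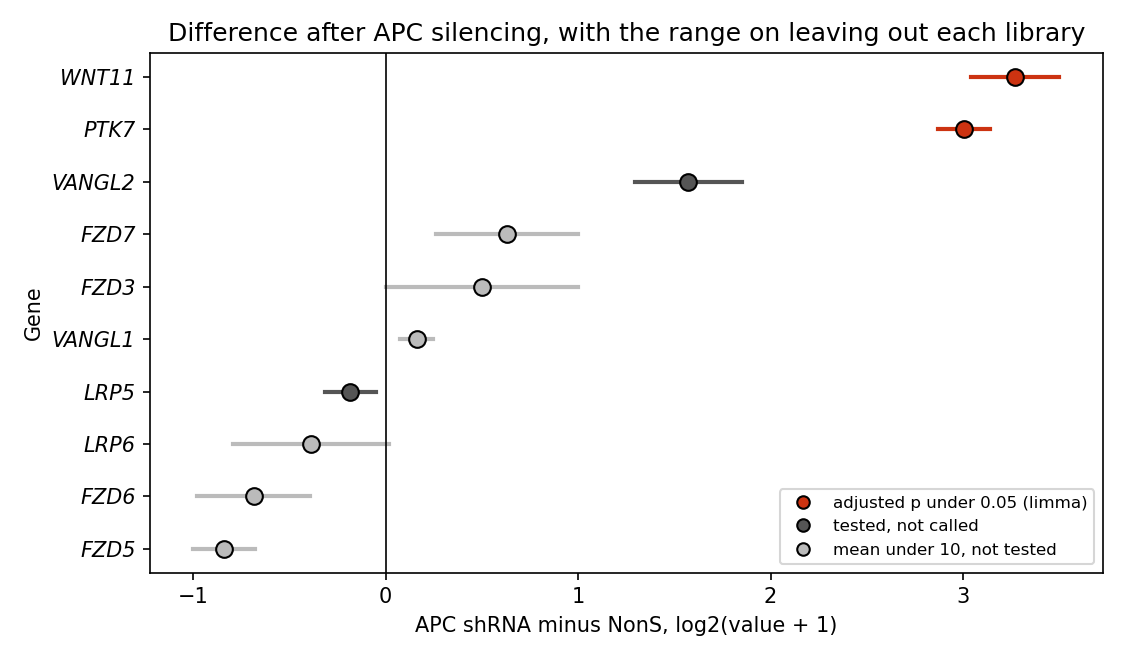
Difference between APC shRNA and NonS on log2(score + 1) for each of the 10 genes. Bars span the 4 values obtained by leaving out each library in turn, red points were called by limma (adjusted p under 0.05), dark points were tested and not called, and light points had a mean under 10 and were not tested. WNT11 and PTK7 lie near 3, VANGL2 at 1.57, and the other 7 between -0.84 and 0.63.

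Frizzled proteins are the seven-pass receptors that bind Wnt ligands directly. FZD5, on chr2:207762586-207769563 (GRCh38, minus strand), had a score of 7 in both NonS libraries and of 3 and 4 in APC shRNA. FZD6, whose product often acts in planar polarity, had 13 and 9 in NonS and 8 and 5 in APC shRNA. For both genes the silenced libraries were lower without overlap, by a fold of 0.5 (rounding bounds 0.4 and 0.615) and 0.591 (0.522 and 0.667). FZD7, on chr2:202034587-202038445 (plus strand, a single exon), is known as a receptor of intestinal stem cells. Its score was 4 in both NonS libraries and 5 and 9 in APC shRNA, a fold of 1.75 (rounding bounds 1.44 and 2.14). The nearest scores of the 2 conditions were 9 and 8 for FZD6 and 4 and 5 for FZD7, gaps that rounding by 0.5 on each side could close. FZD3 was at 1 or 0 in every library. None of the 4 reached the mean of 10 needed for the test, and when every gene above 0 was tested instead, none was called (limma, adjusted p = 0.0971 for FZD5, 0.372 for FZD6, 0.399 for FZD7 and 0.515 for FZD3), against 11.5% of all genes in that test. FZD6 shares 138 exonic bases with the antisense gene BAALC-AS1.

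Read as a family, the Frizzled scores had a similar sum and a different makeup. All 10 Frizzled genes together summed to 28 and 23 in NonS and 27 and 32 in APC shRNA, so the sums overlapped. FZD5 and FZD6 held 71.4% and 69.6% of the sum in NonS and 40.7% and 28.1% in APC shRNA, a mean share of 70.5 ± 1.32% against 34.4 ± 8.92% (SD, n = 2). FZD7 with FZD2, its close relative, held 17.9% and 21.7% in NonS and 48.1% and 56.3% in APC shRNA. FZD5 and FZD6 were thus the larger part in NonS and FZD2 and FZD7 in APC shRNA, in both replicates. Each pair joins genes whose scores moved in the same direction. With a similar sum, opposite changes of the 2 shares therefore follow from the grouping. Most of the gain in the share of FZD2 and FZD7 came from FZD2, with scores of 1 and 1 in NonS and 8 and 9 in APC shRNA. FZD2 was under the mean of 10 but was called when every gene above 0 was tested (limma, adjusted p = 0.0039). That call rests on nearly equal small whole numbers within each condition, and in the same fit WNT3, at 0 in both controls and at 1 in both silenced libraries, was called too. FZD4 was between 2 and 4, and FZD1, FZD8, FZD9 and FZD10 were listed at 0 in every library. These shares rest on small whole numbers and were not tested.

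**Figure D3:**
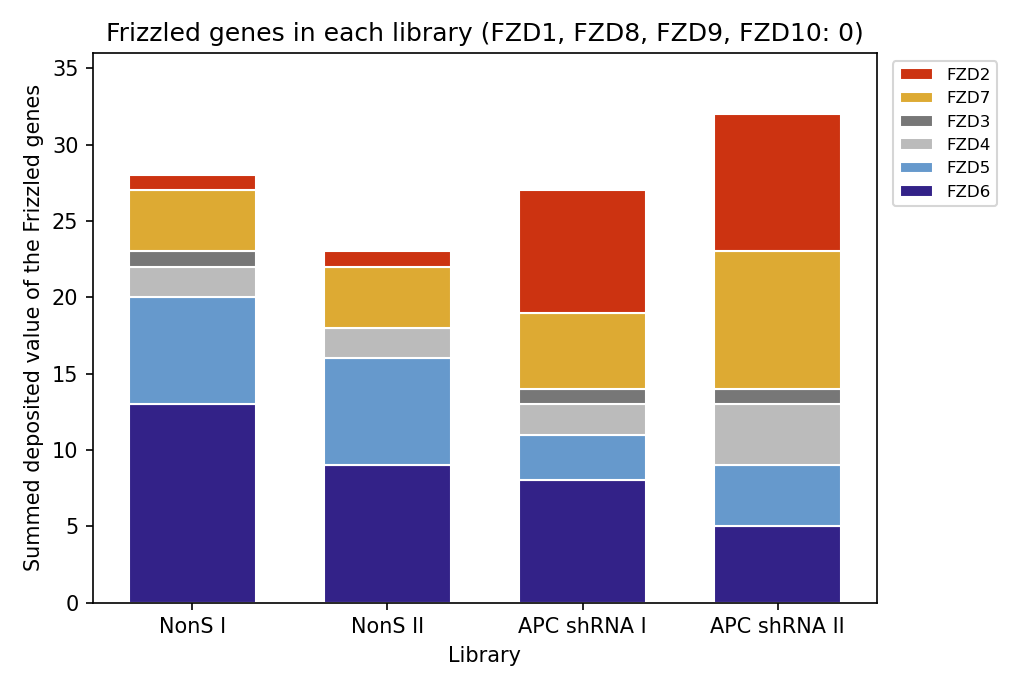
Summed deposited score of the Frizzled genes in each library, stacked by gene. FZD5 and FZD6 (blue) take 20 and 16 score units in NonS and 11 and 9 in APC shRNA, and FZD2 and FZD7 (red and yellow) take 5 and 5 in NonS and 13 and 18 in APC shRNA.

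VANGL1 and VANGL2 encode the pair of four-pass membrane proteins at the centre of the polarity complex. VANGL2, on chr1:160400586-160428678 (GRCh38, plus strand), had scores of 5 and 7 in NonS and 16 and 24 in APC shRNA. Both silenced libraries were well above the highest control. The means were 6 ± 1.41 and 20 ± 5.66 (SD, n = 2), a fold of 3.33 with rounding bounds of 3 and 3.73, and the log2(score + 1) difference was 1.57 with an SE of 0.28 (limma, adjusted p = 0.0688). VANGL2 therefore missed the threshold in the main fit, and it entered the test through its APC shRNA scores alone. With the libraries rescaled it passed (limma, adjusted p = 0.0287 with median-of-ratios size factors, 0.0307 with upper quartiles and 0.0330 with equal totals). In other fits on the scores as deposited it fell on either side of the threshold. VANGL1, on chr1:115641953-115698224 (plus strand), had 7 and 8 in NonS and 8 and 9 in APC shRNA, a difference of 0.16 that was not tested. VANGL2 held 41.7% and 46.7% of the summed VANGL1 and VANGL2 score in NonS and 66.7% and 72.7% in APC shRNA, a mean gain of 25.5 percentage points.

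The remaining core polarity genes were mostly low. SCRIB, a scaffold of apical-basal and planar polarity and the only one of the 13 to be tested, had scores of 37 and 39 in NonS and 32 and 31 in APC shRNA (limma, adjusted p = 0.0883). CELSR3, an atypical cadherin of the complex, had 4 and 5 in NonS and 7 and 8 in APC shRNA. PRICKLE4 had 10 and 13 in NonS and 7 and 8 in APC shRNA. Of the Fat and Dachsous cadherins, which act in a parallel polarity system, 5 of 7 were listed at 0 and FAT1 ranged from 35 to 64 with overlapping conditions (limma, adjusted p = 0.744).

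Promoter sequences are shown for PTK7 and VANGL2, whose scores were higher after APC silencing, and for LRP5, whose score was not, so that the same motifs can be read in each. Windows of 300 bases (250 before to 50 after the start) were taken from RefSeq on GRCh38.p14 and were held for 5 of the 10 genes, in 7 windows. Capitals mark the GC box, GGGCGG on either strand.
PTK7, chr6:43076064-43076363, plus strand: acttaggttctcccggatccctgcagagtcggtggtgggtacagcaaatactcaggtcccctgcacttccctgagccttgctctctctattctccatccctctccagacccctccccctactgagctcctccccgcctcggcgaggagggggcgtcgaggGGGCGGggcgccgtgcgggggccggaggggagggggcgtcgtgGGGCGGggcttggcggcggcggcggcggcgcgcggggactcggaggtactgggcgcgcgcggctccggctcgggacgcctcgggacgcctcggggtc
VANGL2, chr1:160400314-160400613, plus strand: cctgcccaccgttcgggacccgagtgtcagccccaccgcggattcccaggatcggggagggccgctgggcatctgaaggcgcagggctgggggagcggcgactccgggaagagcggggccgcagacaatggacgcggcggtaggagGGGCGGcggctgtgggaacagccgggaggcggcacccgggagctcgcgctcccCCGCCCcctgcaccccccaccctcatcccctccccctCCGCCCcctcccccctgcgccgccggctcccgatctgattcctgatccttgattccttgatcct
LRP5, chr11:68312341-68312640, plus strand: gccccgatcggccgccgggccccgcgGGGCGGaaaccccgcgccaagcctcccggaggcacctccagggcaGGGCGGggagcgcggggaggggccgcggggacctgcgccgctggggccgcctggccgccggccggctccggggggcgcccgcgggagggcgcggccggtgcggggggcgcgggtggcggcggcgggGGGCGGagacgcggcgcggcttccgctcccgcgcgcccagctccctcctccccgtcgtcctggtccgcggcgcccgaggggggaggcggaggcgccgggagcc
All 3 windows were richer in GC than most promoters, and that of LRP5 was the richest. GC content was 73.3% in the printed PTK7 window and the VANGL2 window and 86.7% in the LRP5 window, against a median of 58.7% over 35116 windows, and CpG dinucleotides numbered 34, 29 and 52 against a median of 14. A second PTK7 window, chr6:43076564-43076863, is not printed and had a GC content of 68.7% and 27 CpG dinucleotides. GC boxes numbered 2, 3 and 3 in the printed windows, and 45.0% of all windows held at least 1. The core TCF/LEF motif CTTTGAT, searched on both strands, was in none of the 7 windows of PTK7, VANGL2, LRP5, FZD5 and VANGL1, and in 2.62% of all windows. TATAAA was also in none of the 7 (11.5% of all windows), and CCAAT was in that of FZD5 alone (34.6% of all windows). A motif match describes these letters only.

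The 107 other genes of the pathway, grouped by role, place the 10 in their surroundings. Of the 107, 47 were listed at 0 in all libraries and 26 were tested. Of the 26, 8 rose and 0 fell by limma at an adjusted p under 0.05, where 4.33% were higher and 3.7% lower over all genes. Of the 8, 4 (NOTUM, SOSTDC1, KREMEN1 and ARHGEF19) had a NonS mean under 10 and entered the test only through their APC shRNA scores, so the count is not set against that share. At an unadjusted p under 0.05, 4 of the 26 were lower (SCRIB, DVL1, TMED10 and LGR4). Such a p, in either direction, was found for 1912 of the 5376 genes tested. The lists were drawn up with earlier results of these data known, so these counts are a description.

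**Figure D4:**
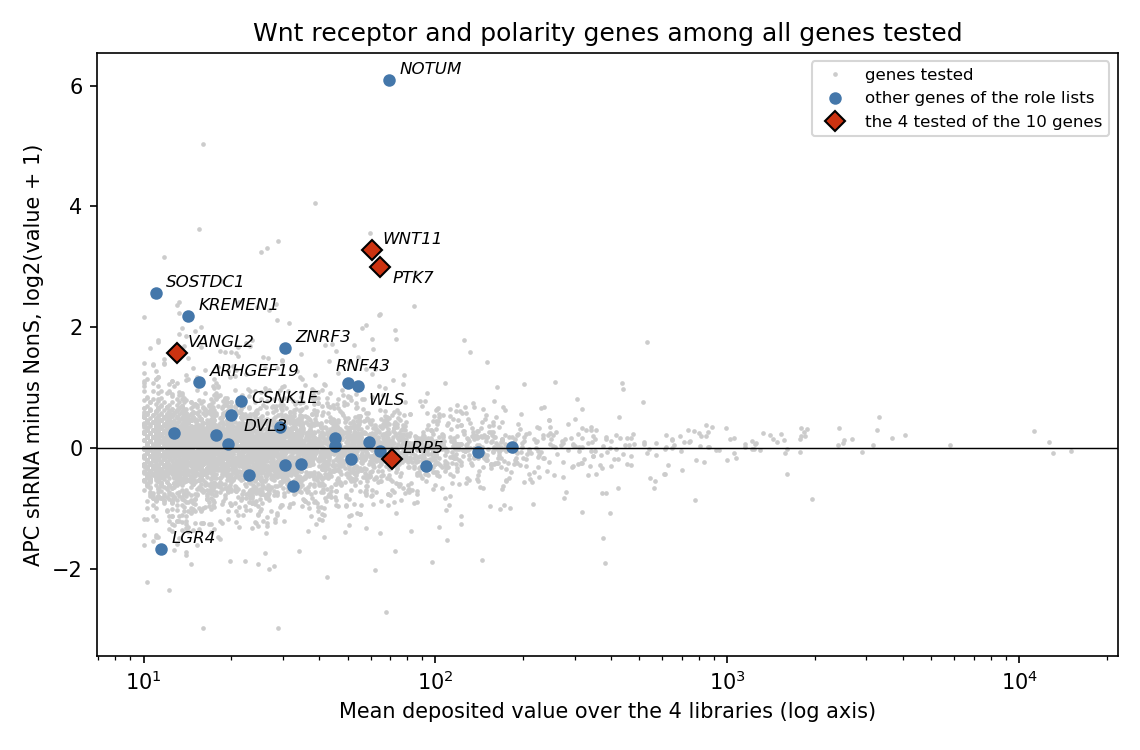
Difference between APC shRNA and NonS on log2(score + 1) against the mean score over 4 libraries (logarithmic axis) for the 5376 genes tested. Grey points are all genes tested, blue points other genes of the pathway lists and red diamonds the 4 tested of the 10 genes. WNT11 and PTK7 lie at the upper edge of genes with a similar mean, and NOTUM lies above them.

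RNF43 and ZNRF3 encode related ubiquitin ligases that clear Frizzled from the membrane. RNF43 scored 31 and 33 in NonS and 67 and 70 in APC shRNA, a log2(score + 1) difference of 1.07 (limma, adjusted p = 0.0423). ZNRF3 scored 13 and 15 in NonS and 39 and 55 in APC shRNA, a difference of 1.66 (limma, adjusted p = 0.0490). ZNRF3 was not called with every gene above 0 tested (limma, adjusted p = 0.0752) or with a pseudocount of 5. Nor was it called with filters of a mean of at least 8 or of at least 10 in every library. Their silenced libraries lay above the controls without overlap. LGR4, a receptor for the R-spondins that restrain both ligases, had scores of 21 and 15 in NonS and 6 and 4 in APC shRNA (limma, adjusted p = 0.0625).

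NOTUM, a secreted enzyme that strips the lipid from Wnt proteins, had scores of 1 in both NonS libraries and of 108 and 168 in APC shRNA. That was a log2(score + 1) difference of 6.08 (limma, adjusted p = 0.0423). KREMEN1, a DKK receptor that helps remove LRP5 and LRP6 from the surface, went from 4 and 5 to 23 and 25. SOSTDC1, a secreted antagonist that can bind LRP5 and LRP6, went from 3 and 2 to 20 and 19. The differences were 2.19 and 2.56 (limma, adjusted p = 0.0423 for both), and NOTUM, KREMEN1 and SOSTDC1 passed the filter only through their APC shRNA scores. DKK1, the secreted LRP5 and LRP6 antagonist with the highest NonS score of its list, had 15 and 17 in NonS and 14 and 25 in APC shRNA (limma, adjusted p = 0.655).

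Among the intracellular partners, DVL3, one of the Dishevelled adaptors that bind Frizzled, rose from 16 and 16 to 24 and 24, a log2(score + 1) difference of 0.56 (limma, adjusted p = 0.0428). Its scores were equal within each condition, so rounding to whole numbers may hide the spread between its replicates. DVL1 scored 32 and 35 in NonS and 28 and 27 in APC shRNA (limma, adjusted p = 0.106), and DVL2 11 and 12 in NonS and 13 and 15 in APC shRNA (limma, adjusted p = 0.191). CSNK1E, a kinase of Dishevelled, rose from 16 and 15 to 28 and 27, and ARHGEF19 from 9 and 10 to 21 and 22. Their differences were 0.79 and 1.10 (limma, adjusted p = 0.0423 for both), and ARHGEF19, with a NonS mean of 9.5, was tested only through its APC shRNA scores. Of the genes for ligand secretion, WLS, the carrier that brings Wnt proteins to the surface, had 32 and 38 in NonS and 59 and 89 in APC shRNA (limma, adjusted p = 0.101), and TMED2 had 68 and 62 in NonS and 51 and 77 in APC shRNA. WLS separated the conditions and TMED2 did not. WLS was called with median-of-ratios or upper quartile scaling and with GC content correction (limma, adjusted p = 0.0425 for the last).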

How the data were processed

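RNA of HT-29 cells was sequenced as 50 bp single reads from stranded mRNA libraries. According to the study's methods, the authors filtered the reads, mapped them to human genome assembly 38 with TopHat2, assigned them to GENCODE v29 genes with htseq-count and compared the conditions with DESeq2. The submitters' processing notes name bcl2fastq 2.19.0.316, DESeq2 1.4.1 and hg19, and this difference in build could not be settled. Positions are those of GENCODE v29 on GRCh38. The deposited values are whole numbers per gene, treated as a score of unstated scale, since replicates of low genes varied by 0.484 (NonS) and 0.363 (APC shRNA) times the Poisson variance and the sum of score times longest transcript length in kb was between 980841 and 984873 in every library. The authors' deposited comparison table holds mean values, fold changes and adjusted p-values and was not used. No count model was run.

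Genes with a mean of at least 10 were compared on log2(score + 1) with limma 3.58.1 (R 4.3.3, mean-variance trend, two-sided, Benjamini-Hochberg over 5376 genes). The fit was also run on simulated data whose libraries varied independently. That run does not cover the correlated replicate differences of the real libraries (0.724). The plan set a limma test for scores and a count test only for read counts. Alternatives covered scaling, filters, pseudocounts (0.1 and 5), moderation, a replicate block, GC content correction (loess, span 0.5), the study's thresholds and each library left out. Bounds from rounding (0.5) were added after seeing the data. The 10 members and all lists were chosen with earlier results of these data known. Every member, every called gene of the lists and the highest gene not called in each pathway list are named, except that of the polarity effectors, which is not reported here. FZD4, WNT7B, WNT6, WNT3, CELSR3, PRICKLE4, WLS, LGR4, LGR5, DVL2, TMED10, MAPK9 and the genes listed at 0 were named after their values were seen. Promoter windows came from RefSeq (GRCh38.p14).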

Additional observations from a re-analysis of the deposited data

How the results depend on the processing

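On the scores as deposited 233 genes were called higher and 199 lower. The counts were 373 and 405 with median-of-ratios size factors, 952 and 515 with every gene above 0 tested, 368 and 352 with robust moderation, 446 and 469 with GC content correction, and 0 and 0 at the study's thresholds (a fold over 4 and an adjusted p under 0.01), where no member or other pathway gene was called (0 and 0). The smallest adjusted p in the table was 0.0423, so no gene could pass these thresholds whatever its fold. The study set them for its own DESeq2 comparison, where it reported PTK7 and NOTUM among the upregulated genes. The counts of 0 here are for limma on the scores and say nothing of that comparison. With equal totals 369 were lower, and with at least 10 in every library 139 were higher, 1 member among them (PTK7, since WNT11 and VANGL2 were then not tested) and 3 other pathway genes. Leaving out any 1 library gave between 0 and 0 calls in every count, with the lone library assumed to vary like the others. WNT11 and PTK7 were called in each other fit that tested them except at the study's thresholds, and no tested member changed direction. Without 1 library the difference of LRP6, not tested, ran from -0.79 to 0.01, and that of FZD3 from 0 to 1. Other pathway genes called lower numbered 1 with median-of-ratios, upper quartile or equal total scaling and robust moderation (LGR4), 1 with every gene above 0 tested (MAPK9), and 2 with GC content correction (DVL1 and LGR4). Nothing says that a replicate number marks a shared batch, although the differences between replicates II and I correlated between conditions across 5376 genes (0.724). With a replicate block 523 genes were higher, 500 lower, and 1 other pathway gene lower (LGR4), and VANGL2 was called (limma, adjusted p = 0.0468). With GC content correction added to the replicate block 1212 were higher and 1262 lower (23.5% of genes tested), with 1 member lower, LRP5 (difference -0.30, limma, adjusted p = 0.0307), and 4 other pathway genes lower. Robust moderation and GC content correction also called VANGL2 (limma, adjusted p = 0.0303 and 0.0253). Over the fits of all 4 libraries the adjusted p of VANGL2 ran from 0.00293 to 0.123 (limma). Without 1 library its difference ran from 1.29 to 1.85, and it was not called. Of the alternative values of the member differences, 85 kept their side of the threshold or moved less than the replicate spread, 8 crossed it towards a call, 8 lost a call, each with 1 library left out, and 7 moved by more than the spread. The share of FZD2 and FZD7 in their family was up by 32.4 percentage points, and by 41.5 when scores were divided by transcript length. The score behaves as already divided by length, so the larger value is no check of this share. Differences of FZD3, FZD5 and VANGL1 moved by more than the replicate spread when scores were shifted by 0.5, that of FZD3 from 0.50 to -0.37. Depth in reads is unknown, so the precision of scores under 10 is limited by rounding.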

Other observations

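Across 5364 genes, the difference between NonS replicates II and I had a Spearman correlation with the GC content of the longest transcript of 0.486, and that between the APC shRNA replicates of 0.0776. The difference between the conditions had a correlation with GC content of 0.240. The transcripts of WNT11, PTK7 and LRP5 had a GC content of 59.5%, 58.3% and 62.8%, those of FZD3, FZD6 and LRP6 of 34.9%, 38.4% and 40.2%. With GC content correction the differences of WNT11 and PTK7 were 3.18 and 2.92 and both were called by limma.

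LGR5, a marker of intestinal stem cells and an R-spondin receptor like LGR4, had scores of 3 and 2 in NonS and 10 and 8 in APC shRNA, opposite in direction to LGR4. Its mean was under 10, so it was not tested with the main filter, and with every gene above 0 tested it was not called (limma, adjusted p = 0.0813). The difference between LGR4 and LGR5 was not tested.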
